A study of Mus musculus with 12 samples.

Results

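Conventional CD4+ T cells carrying the M354 form of Foxp3 were compared with cells carrying the M176 form on 2 arrays each, 4 of the 12 arrays of the study. The arrays were chosen by their titles, and all 8918 genes that passed a filter on low values were tested, of 16426 genes with a probe set that names 1 gene. The filter kept a gene if at least 2 of the 12 arrays had it above that array's median intensity. The M354 cells, the M176 cells and the WT cells used beside them were T cells of WT C57BL/6 male mice aged 6 weeks, taken from the spleen, transduced in culture with a retrovirus encoding that form of Foxp3, and sorted as live CD4+ cells with high Thy1.1. The other 6 arrays held CD4+ CD25-high regulatory T cells (Tregs) sorted from spleens of male C57BL/6 mice, also aged 6 weeks, with M354, M176 or WT Foxp3. The transduced cells keep a WT genotype of their own, and their Foxp3 comes from the virus, whose promoter the labels do not give. A transduction without Foxp3 was not analysed here, and what M354 and M176 change in the protein is not stated in the sources used here. Nothing in the labels tells whether 2 arrays with the same form of Foxp3 stand for 2 animals, 2 cultures or 1, so the p-values rest on a spread that may be technical.

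Foxp3 is the forkhead transcription factor that defines Tregs. Introduced into conventional T cells, it is known to raise genes such as Il2ra and to lower cytokine genes, and it acts together with partners such as NFAT and other factors induced by the T cell receptor. T cells in culture after activation commonly divide, and dividing cells express genes of the cell cycle.

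The intensity of a probe set is the deposited RMA value on a linear scale, and a difference is M354 minus M176 on the log2 scale. The median intensity of the 4 compared arrays lay between 101.5 and 105.2. Precision is limited by having 2 arrays for each form of Foxp3. The genes of T cell identity were high on all of these arrays. Cd3e lay between 5925 and 6508 on the 4 compared arrays and Cd4 between 3762 and 4413. Foxp3 itself was close in both groups, with 5340 and 5821 in M354 cells, 5663 and 5233 in M176 cells, and 5945 and 6163 in WT cells. The arrays of M354 and M176 overlapped, and the difference was 0.03 (95% interval -0.23 to 0.30, limma adjusted p = 0.993).

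Few genes separated the mutants from each other. At an adjusted p under 0.05, 7 of 8918 genes were called (0.0785%), 5 higher (0.0561%) and 2 lower (0.0224%) in M354 cells. Without adjustment 462 genes had p under 0.05 (5.18%), of which 352 were higher (3.95%) and 110 lower (1.23%). Of all tested genes 90% lay between -0.21 and 0.31 on the log2 scale. The 95% interval of the difference lay within 1 log2 unit of 0 on both sides for 8813 genes (98.8%) and within 0.5 for 6810 (76.4%). The count of calls moved with the arrays in the fit. It was 1 to 18 when each array was left out in turn, 1 without M354 replicate 1 or M176 replicate 2, 4 without M354 replicate 2, 2 without M176 replicate 1 and 18 without either WT array. With the 4 compared arrays alone it was 113. Against WT, with the same WT arrays in both, 119 genes were called in M354 cells (1.33%), 32 higher (0.359%) and 87 lower (0.976%), and 46 in M176 cells (0.516%), 1 higher (0.0112%) and 45 lower (0.505%).

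**Figure D1:**
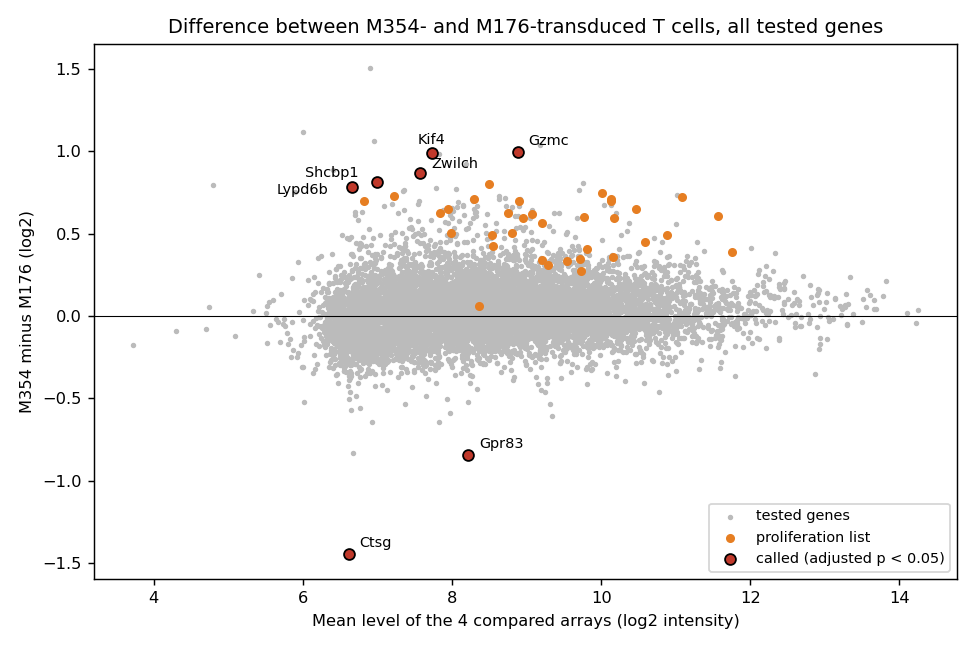
Difference between M354 and M176 cells (log2, vertical axis) against the mean level of their 4 arrays (log2 intensity, horizontal axis) for the 8918 tested genes in grey, with the 34 tested genes of the proliferation list in orange and the 7 called genes in red. The proliferation genes lie at or above 0.06 and the 2 genes called lower, Ctsg and Gpr83, lie well below the cloud.

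The promoters of 4 called genes are shown because the sequence by which a forkhead factor binds was searched in them. They are from RefSeq (GRCm38.p6), 5′ to 3′ on the strand of the gene, 250 bases before to 50 after the annotated start. Capitals mark TTTGAA or its reverse complement, and CCAAT or its reverse complement. The Ctsg promoter lies at chr14:56102525-56102824 on the minus strand, that of Gzmc at chr14:56234608-56234907 on the minus strand, that of Kif4 at chrX:100625815-100626114 on the plus strand and that of Gpr83 at chr9:14859960-14860259 on the plus strand.
Ctsg: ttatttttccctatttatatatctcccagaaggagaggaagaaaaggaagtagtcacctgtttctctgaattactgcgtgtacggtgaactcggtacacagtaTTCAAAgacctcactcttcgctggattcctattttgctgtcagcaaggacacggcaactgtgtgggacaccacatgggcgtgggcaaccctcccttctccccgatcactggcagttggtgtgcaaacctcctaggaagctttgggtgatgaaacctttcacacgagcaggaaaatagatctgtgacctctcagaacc
Gzmc: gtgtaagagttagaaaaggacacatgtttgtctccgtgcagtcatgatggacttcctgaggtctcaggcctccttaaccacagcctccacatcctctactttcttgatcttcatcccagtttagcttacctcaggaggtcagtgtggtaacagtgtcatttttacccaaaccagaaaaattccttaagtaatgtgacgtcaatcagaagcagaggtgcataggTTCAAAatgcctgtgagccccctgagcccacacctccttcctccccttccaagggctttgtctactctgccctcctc
Kif4: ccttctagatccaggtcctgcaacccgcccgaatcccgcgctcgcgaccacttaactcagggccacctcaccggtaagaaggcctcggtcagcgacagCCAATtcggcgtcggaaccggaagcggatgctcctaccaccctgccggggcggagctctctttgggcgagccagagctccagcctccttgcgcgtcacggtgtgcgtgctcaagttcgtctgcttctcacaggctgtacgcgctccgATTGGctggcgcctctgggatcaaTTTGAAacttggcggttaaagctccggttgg
Gpr83: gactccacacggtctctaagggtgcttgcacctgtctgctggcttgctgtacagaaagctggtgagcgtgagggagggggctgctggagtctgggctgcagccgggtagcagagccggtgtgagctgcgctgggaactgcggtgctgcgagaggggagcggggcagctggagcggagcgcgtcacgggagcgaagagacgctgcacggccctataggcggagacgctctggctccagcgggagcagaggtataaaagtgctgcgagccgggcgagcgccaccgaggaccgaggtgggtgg

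The forkhead motif TGTTTAC, searched on both strands, was in 0 of these 4 promoters, in 209 of the 7110 tested genes that have a promoter in the table (2.94%) and in 1095 of all 27025 (4.05%). CCAAT and TTTGAA, which are known in promoters of cell cycle genes, were added after the results were known. Kif4 held both, CCAAT at -152 and -5 and TTTGAA at 19 bases from the annotated start. TTTGAA was also in the promoters of Ctsg, at -147, and of Gzmc, at -27. Over the tested genes with a promoter, 42.5% held CCAAT and 14.0% held TTTGAA. Of the 27 genes of the proliferation list with a promoter, 22 held CCAAT (81.5%) and 14 held TTTGAA (51.9%). No motif overlapped another in the 4 promoters shown, and a match describes the letters of the window only.

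Ctsg encodes cathepsin G, a serine protease known from the granules of neutrophils. It had 64.7 and 53.8 in M354 cells, 155 and 167 in M176 cells, and 64.6 and 59.0 in WT cells. Both M354 arrays lay below both M176 arrays and beside the WT arrays. Ctsg passed the filter through the M176-transduced arrays alone. On all other arrays, those of Tregs included, it lay below the lowest array median (101.5). Ctsg fell by 1.45 in M354 cells (SE 0.16, limma adjusted p = 0.000585, and 0.000368 with no filter). Against WT it differed by -0.06 in M354 cells (adjusted p = 0.945) and by 1.38 in M176 cells (adjusted p = 0.000101); both of these use the WT arrays. Of the 11 myeloid markers with a probe set, 9 failed the filter and lay between 22.5 and 86.8 on the 4 arrays. S100a8, a protein of neutrophils, had 37.9 and 42.1 in M354 cells, and 41.2 and 26.5 in M176 cells. Tyrobp, which NK cells also express, passed the filter with 150 and 120 in M354 cells, and 121 and 142 in M176 cells, as did Cebpb with 114 and 101 in M354 cells, and 120 and 120 in M176 cells. The 11 markers summed to 694.1 to 724.4 in M354 cells and to 702.8 to 715.9 in M176 cells.

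Gpr83 encodes a receptor that is known as a marker of Tregs. It had 184 and 263 in M354 cells, 399 and 390 in M176 cells, and 517 and 510 in WT cells. The 3 groups did not overlap, with M354 lowest. Gpr83 fell by 0.84 (SE 0.15, adjusted p = 0.0461). Against WT it differed by -1.22 in M354 cells (adjusted p = 0.000243) and by -0.38 in M176 cells (adjusted p = 0.708). The call of Gpr83 was lost without M354 replicate 1 (adjusted p = 0.474), M176 replicate 1 (0.612) or M176 replicate 2 (0.195), and it held without M354 replicate 2 (0.00953).

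Gzmc encodes granzyme C, a serine protease of cytotoxic granules, and has close relatives among the granzyme genes, whose RNA a probe set may also bind. It had 699 and 631 in M354 cells, 333 and 334 in M176 cells, and 430 and 343 in WT cells. Both M354 arrays were above all the others. Gzmc rose by 0.99 (SE 0.16, adjusted p = 0.0240). It was the 1 member called higher among 9 tested granzyme and cytotoxic genes, while Ctsg was the 1 member called lower. Of all genes, 0.0561% were called higher and 0.0224% lower. Gzma, which encodes granzyme A, had 657 and 1018 in M354 cells, and 361 and 437 in M176 cells (log2 1.04, adjusted p = 0.0849). Gzmb was high in every group, with 5731 and 5915 in M354 cells, 3791 and 5270 in M176 cells, and 5549 and 5356 in WT cells (log2 0.38, adjusted p = 0.992). Both M354 arrays were above both M176 arrays for 5 of the 9 genes and below them for 1, against 20.1% and 13.1% of all genes.

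Markers of CD8+ T and NK cells were read beside the granzyme genes, in cells sorted as CD4+ with high Thy1.1. Of the 6 tested markers 0 were called and 4 had both M354 arrays above both M176 arrays, against 0.0785% and 20.1% of all genes. However, Gzma, Eomes and Nkg7 also stand in the granzyme list. Of the 3 tested markers outside it, Klrd1, a receptor of NK and CD8+ T cells, had 410 and 298 in M354 cells, and 208 and 251 in M176 cells (log2 0.61, adjusted p = 0.386). Cd8a, with a difference of 0.10, overlapped between the groups and lay between 344.4 and 428.4. Cd8b1 had 1035 and 1046 in M354 cells, and 971 and 958 in M176 cells (log2 0.11, limma adjusted p = 0.993). The 13 markers with a probe set summed to 5883 and 6256 in M354 cells, and to 5562 and 5024 in M176 cells. The 10 of them outside the granzyme list summed to 2094 and 2064 in M354 cells, and to 1821 and 1834 in M176 cells. The NK markers Klrb1c, Klra8 and Ncr1 lay between 14.8 and 25.1 on the 4 arrays. The part of such cells in the granzyme values was not tested. In a bulk sample, fewer cells of a type and less RNA per cell cannot be told apart.

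Kif4, Zwilch and Shcbp1 are genes of dividing cells. Kif4 encodes a motor protein that binds chromosomes, and it had 296 and 301 in M354 cells, 156 and 144 in M176 cells, and 209 and 173 in WT cells. Kif4 rose by 0.99 (SE 0.16, adjusted p = 0.0197). Zwilch is a subunit of a complex at the kinetochore, with 255 and 259 in M354 cells, 140 and 141 in M176 cells, and 195 and 152 in WT cells. It rose by 0.87 (adjusted p = 0.0256). Shcbp1, a protein known to act in cytokinesis, had 169 and 169 in M354 cells, 95.9 and 96.5 in M176 cells, and 127 and 110 in WT cells. It rose by 0.81 (adjusted p = 0.0197). For all 3 genes the M354 arrays lay above all the others. Lypd6b, of the Ly6 protein family, had 126 and 140 in M354 cells, 75.8 and 77.9 in M176 cells, and 70.6 and 73.6 in WT cells. It rose by 0.79 (adjusted p = 0.0197), and it was higher than in WT in M354 cells (log2 0.88, adjusted p = 0.000858).

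The calls of Gzmc, Kif4, Zwilch, Shcbp1 and Lypd6b were each lost when any 1 of the 4 compared arrays was left out, with adjusted p between 0.0746 and 0.364. The call of Ctsg held in each of these fits, with adjusted p between 0.00248 and 0.0386.

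**Figure D2:**
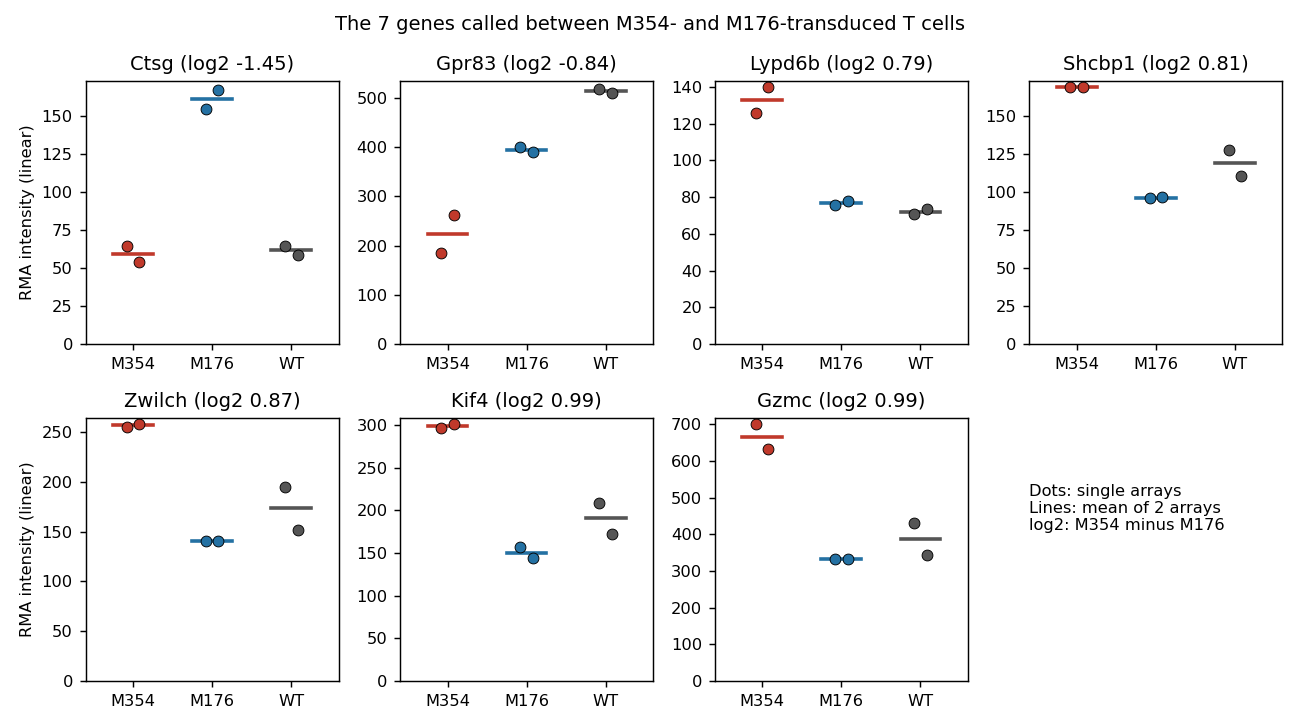
RMA intensity (linear, vertical axis) of the 7 called genes on single arrays of M354, M176 and WT cells, with dots for arrays and lines for the mean of 2 arrays. M354 and M176 arrays do not overlap in any panel, and for Ctsg the M176 arrays (155 and 167) lie above both M354 and both WT arrays.

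Genes just outside the threshold included Spc25, a subunit of the Ndc80 complex of the kinetochore, with 328 and 305 in M354 cells, and 133 and 192 in M176 cells (log2 0.99, adjusted p = 0.0500337, not called). The chemokine receptor Ccr8, which effector Tregs carry, had 254 and 326 in M354 cells, and 169 and 166 in M176 cells (log2 0.78, adjusted p = 0.0650). Ms4a4c, a membrane protein, had 404 and 397 in M354 cells, and 202 and 220 in M176 cells (log2 0.92, adjusted p = 0.0849). On the low side, Dntt, the terminal transferase of lymphocyte precursors, had 73.2 and 78.4 in M354 cells, and 112 and 163 in M176 cells (log2 -0.83, adjusted p = 0.0649). Ankrd55 had 97.7 and 97.3 in M354 cells, and 162 and 143 in M176 cells (log2 -0.64, adjusted p = 0.0995). Nfkbiz, a regulator of NF-kappaB, Atp6v0d2, a subunit of the proton pump, and the gelatinase gene Mmp9 had differences of -0.61, -0.64 and -0.53 with adjusted p of 0.149 to 0.179. Lta, Atp8a2 and Apoa1 followed with differences of -0.52, -0.59 and -0.56 (adjusted p 0.288 to 0.312). In all of these genes the arrays of the 2 mutants did not overlap. That is no further evidence, since they were picked by small p or wide difference in this same comparison.

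The genes of proliferation were higher as a list in M354 cells, although no member was called, against 0.0785% of all genes. All 34 tested members had a positive difference, against 55.0% of all genes, and 32 had both M354 arrays above both M176 arrays, against 20.1% of all genes. At an unadjusted p under 0.05 the list held 32 members on the high side, against 3.95% of all genes, and 0 on the low side. Its median difference was 0.60 against 0.02 over all genes, and it lay between 0.46 and 0.66 when each of the 4 arrays was left out. With the 4 compared arrays alone 19 members were called, against 113 of all 8918 genes, of which 104 were higher.

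Tpx2, a spindle assembly factor, had the widest difference, with 461 and 488 in M354 cells, 258 and 288 in M176 cells, and 356 and 281 in WT cells (log2 0.80, adjusted p = 0.131). Cks2, a partner of cyclin-dependent kinases, had 1424 and 1252 in M354 cells, and 746 and 844 in M176 cells (log2 0.75, adjusted p = 0.0849). Ttk, a kinase of the spindle checkpoint, had 175 and 209 in M354 cells, and 114 and 117 in M176 cells (log2 0.73, adjusted p = 0.103). Cyclin A2 (Ccna2), which drives S phase and entry into mitosis, had 2696 and 2849 in M354 cells, and 1504 and 1873 in M176 cells (log2 0.72, adjusted p = 0.154). For these 4 genes the arrays of both mutants did not overlap, but Tpx2, Cks2 and Ttk were picked for their wide difference. Mki67, the antigen Ki-67, named outside the rule, had 1657 and 1947 in M354 cells, and 1407 and 1226 in M176 cells (log2 0.45). Tk1, the thymidine kinase, was the smallest, with 352 and 321 in M354 cells, and 322 and 323 in M176 cells (log2 0.06), and its arrays overlapped. The sum over the list was 34755 and 37961 in M354 cells, 24010 and 26287 in M176 cells, and 28357 and 24649 in WT cells. The median difference from WT was 0.50 in M354 cells and -0.07 in M176 cells; both use the WT arrays.

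**Figure D3:**
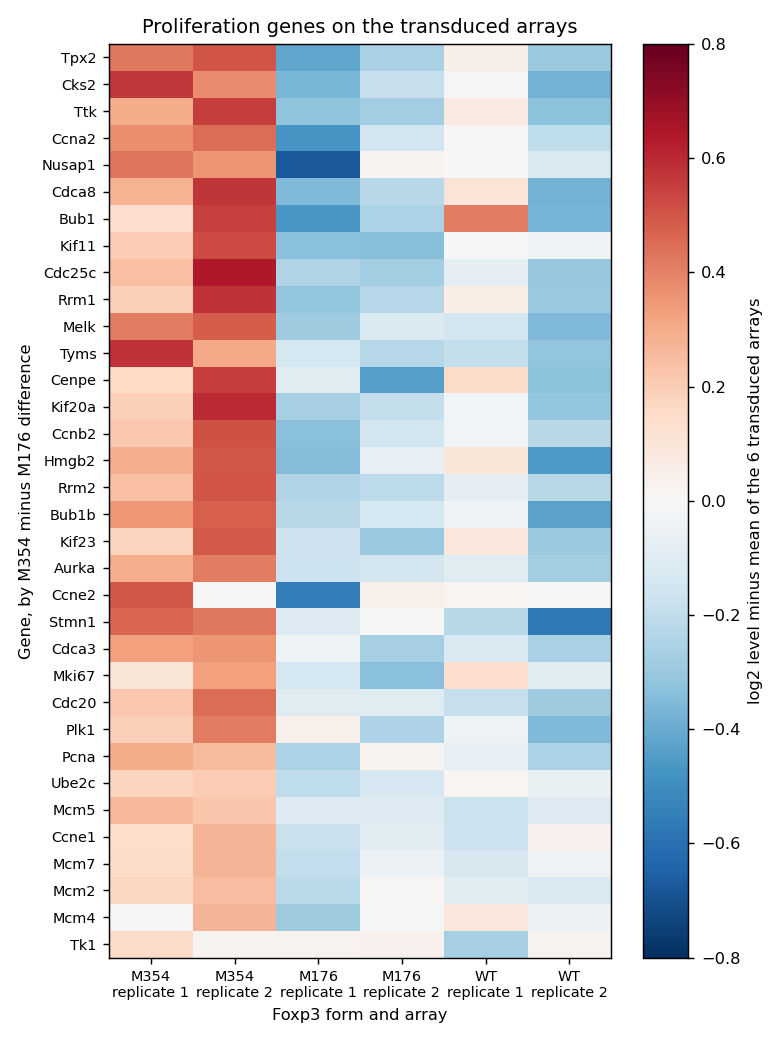
Level of the 34 tested proliferation genes (rows) on the 6 transduced arrays (columns), as log2 level minus the gene's mean over these arrays, red for higher and blue for lower. Nearly all genes are red on both M354 arrays and blue or pale on both M176 arrays, with a median M354 minus M176 difference of 0.60.

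The histone list was taken by symbol and holds mostly clustered genes, whose RNA is made in S phase. It had a median of 0.31 over 22 tested members, with 8 above and 2 below without overlap, against 20.1% and 13.1% of all genes. The 2 below were H1f7 and H1f10 (log2 -0.18 and -0.21), which lie outside the clusters. None of the list was called, against 0.0785% of all genes. Histone genes varied widely between arrays of a group: H2bc3 had 3853 and 1339 in M354 cells, and 709 and 2627 in M176 cells. Small nucleolar RNAs varied in the same manner, with a mean log2 level of 9.64 and 8.75 on the M354 arrays, 8.86 and 9.46 on the M176 arrays, and 8.61 and 9.18 on the WT arrays. Their difference between the mutants had a median of 0.03 over 36 genes, and 0 were called, against 0.0785% of all genes. M354 replicate 1 correlated better with M176 replicate 2 (r = 0.9912 across genes) than with M354 replicate 2 (0.9872). M354 replicate 2 correlated best with WT replicate 1 (0.9891). With the snoRNA level as a covariate over the 6 transduced arrays, the median of the proliferation list was 0.60 and 2 genes were called in all, Ctsg and Kif4 (adjusted p = 0.00427 and 0.0484).

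Genes high in Tregs leaned the other way. Of 34 tested members, 10 had a positive difference, against 55.0% of all genes. Both M354 arrays lay below both M176 arrays for 19 members and above them for 4, against 13.1% and 20.1% of all genes. The median was -0.17, and it lay between -0.23 and -0.12 when each of the 4 arrays was left out. Gpr83 was the 1 member called, against 0.0785% of all genes. Klrg1, a receptor of effector cells, had 76.8 and 93.0 in M354 cells, and 118 and 115 in M176 cells (log2 -0.46, adjusted p = 0.726). Nt5e, the ectoenzyme CD73, had 763 and 823 in M354 cells, 925 and 1057 in M176 cells, and 1310 and 1135 in WT cells. Lrrc32, which encodes the TGF-beta carrier GARP, had 2186 and 2351 in M354 cells, 2878 and 2785 in M176 cells, and 3515 and 4371 in WT cells. Both genes were lowest in M354 cells and highest in WT cells. Il2ra, the IL-2 receptor alpha chain, named outside the rule, had 6863 and 7686 in M354 cells, and 8018 and 8671 in M176 cells (log2 -0.20, adjusted p = 0.993). The median of the list against WT was -0.37 in M354 cells and -0.22 in M176 cells.

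Genes of the early T cell receptor response and of IL-2 feedback had medians of -0.17 and -0.16. Of 26 tested early response genes, 12 were below and 1 above without overlap, and of 15 IL-2 genes 10 were below and 0 above, against 13.1% and 20.1% of all genes. No member of either list was called, against 0.0785% of all genes. Without each of the 4 arrays these medians lay between -0.22 and -0.08 and between -0.28 and -0.07. Fos, a subunit of AP-1, had 70.5 and 82.9 in M354 cells, 107 and 95.6 in M176 cells, and 138 and 119 in WT cells (log2 -0.41, adjusted p = 0.457). Junb, another subunit, had 420 and 366 in M354 cells, and 537 and 490 in M176 cells (log2 -0.39). Socs3, a feedback inhibitor of cytokine signalling, had 511 and 524 in M354 cells, and 707 and 716 in M176 cells (log2 -0.46, adjusted p = 0.479).

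**Figure D4:**
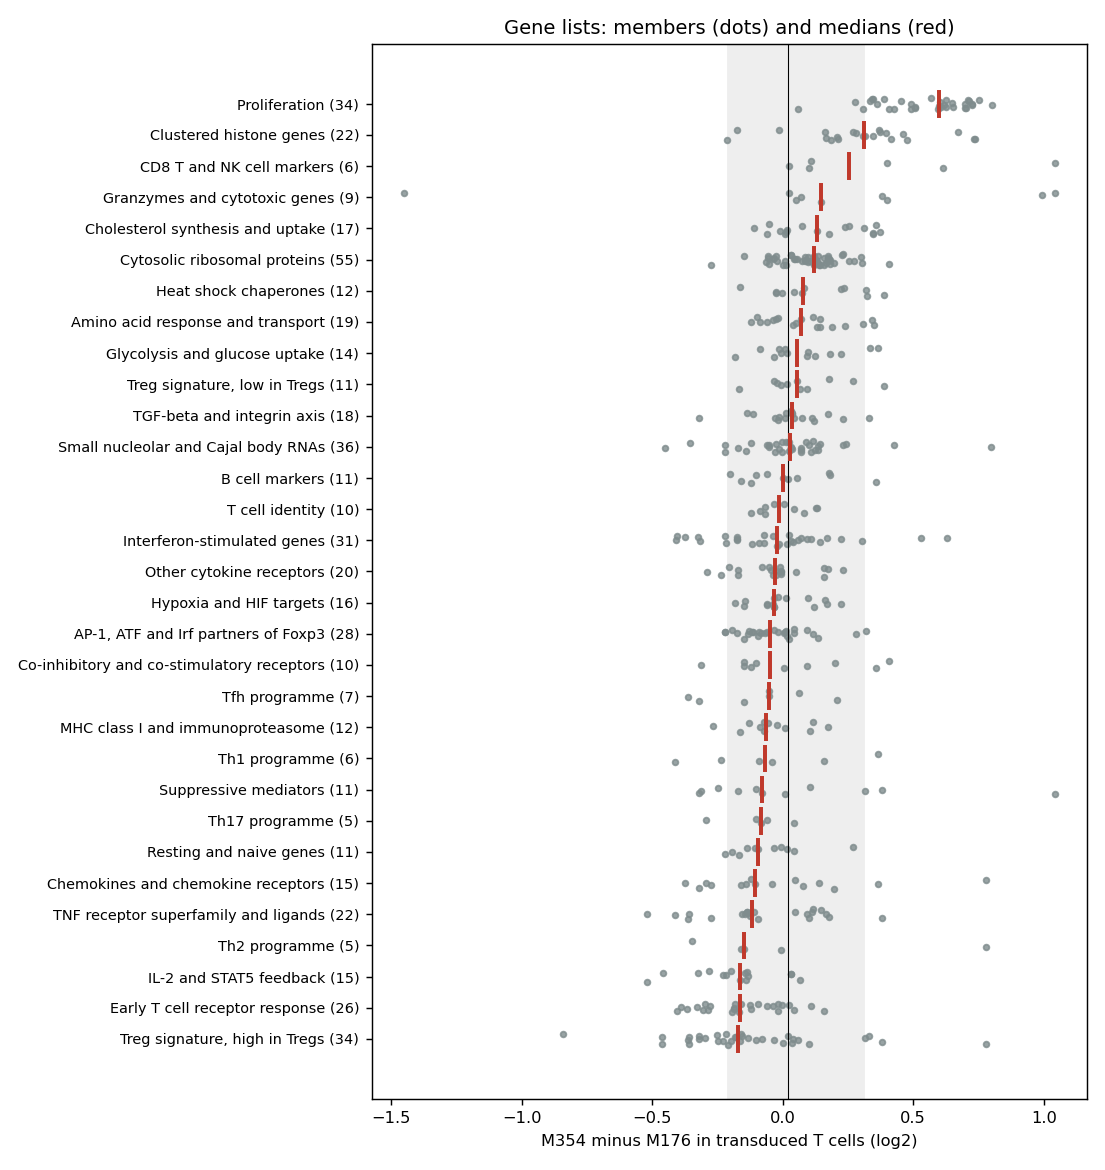
Difference between M354 and M176 cells (log2, horizontal axis) for the tested members of each gene list with at least 5 tested genes (dots; number of members in brackets), with the median in red. The grey band holds 90% of all tested genes (-0.21 to 0.31) and the black line is their median; the proliferation list, with a median of 0.60, lies mostly to the right of the band.

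Over 16 tested hypoxia genes the median was -0.03, and their sum was 19472 and 20584 in M354 cells, 19208 and 20702 in M176 cells, and 34749 and 33484 in WT cells. The glucose transporter gene Slc2a3 had 1093 and 1213 in M354 cells, 1401 and 1220 in M176 cells, and 2678 and 2636 in WT cells. Both mutants were below WT for Slc2a3, by 1.21 in M354 cells (adjusted p = 5.11e-05) and by 1.02 in M176 cells (adjusted p = 0.000213), and these differences use the same WT arrays. Over 17 cholesterol genes the median was 0.13, with 7 above and 0 below without overlap, against 20.1% and 13.1% of all genes. Over 31 interferon-stimulated genes it was -0.02, with 6 above and 13 below, against 20.1% and 13.1% of all genes. Members ran both ways, from -0.41 to 0.63. An unadjusted p under 0.05 was reached by 3 on the high and 4 on the low side, against 3.95% and 1.23% of all genes. Ifit1, an antiviral RNA-binding protein, had 132 and 127 in M354 cells, and 81.5 and 85.6 in M176 cells (log2 0.63, adjusted p = 0.512). Ifit3, of the same family, had 152 and 132 in M354 cells, and 89.9 and 107 in M176 cells, while the guanylate-binding protein gene Gbp3 had 511 and 562 in M354 cells, and 684 and 740 in M176 cells. No member of these 3 lists was called, against 0.0785% of all genes.

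The lists of receptors, cytokine programmes and partners of Foxp3 held 0 called members, against 0.0785% of all genes. At that share most lists of such a size hold 0. Gpr83, Gzmc and Ctsg above stand in other lists. Over 22 tested genes of the TNF receptor superfamily and its ligands the median was -0.12, with 8 below and 4 above without overlap, against 13.1% and 20.1% of all genes. Tnf, the cytokine TNF, had 799 and 755 in M354 cells, and 1057 and 1010 in M176 cells (log2 -0.41, adjusted p = 0.502). Lta, its relative lymphotoxin alpha, had 244 and 254 in M354 cells, and 378 and 337 in M176 cells. Both cytokine genes were lower on both M354 arrays than on both M176 arrays.

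Over 15 chemokine and chemokine receptor genes the median was -0.10, with 8 below and 2 above without overlap, against 13.1% and 20.1% of all genes. Ccr8 stood at the high end with 0.78, while Cxcl10, a ligand of the receptor Cxcr3, had 75 and 99.6 in M354 cells, and 108 and 117 in M176 cells (log2 -0.38, adjusted p = 0.745). The Th1, Th2, Th17 and follicular helper lists had 5 to 7 tested genes each and medians of -0.07, -0.15, -0.08 and -0.05. Maf, a factor of Th2 and follicular helper cells, had 906 and 1010 in M354 cells, 1280 and 1155 in M176 cells, and 1663 and 1561 in WT cells (log2 -0.35, adjusted p = 0.568). Its arrays did not overlap between the 3 groups.

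Over 28 AP-1, ATF and Irf genes and other partners of Foxp3 the median was -0.05, with 3 above and 2 below without overlap, against 20.1% and 13.1% of all genes. Ezh2, a histone methyltransferase, had 1417 and 1719 in M354 cells, and 1289 and 1216 in M176 cells (log2 0.32, adjusted p = 0.992). The ribosomal protein list, taken by symbol, had a median of 0.12 over 55 genes, with 14 above and 2 below. By its symbols it also took in Rps19bp1 and S6 kinase genes, which are not ribosomal proteins. Of the kinase genes, Rps6ka3, Rps6ka5 and Rps6kl1 were among those above and Rps6kb2 among those below. The 12 heat shock genes had a median of 0.08, with 5 above and 1 below. Both lists are set against the same shares of all genes. Hsp90aa1, a cytosolic chaperone, had 1675 and 1658 in M354 cells, and 1154 and 1407 in M176 cells (log2 0.39, adjusted p = 0.596). Markers of B cells had a median of 0.00 over 11 tested genes, and the 10 T cell identity genes had a median of -0.01.

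The same comparison in Tregs gave many more calls. There 2747 of 8918 genes were called (30.8%), 1129 higher (12.7%) and 1618 lower (18.1%), and 382 genes differed by more than 1 on the log2 scale, against 5 in transduced cells. The difference between the systems was called for 1587 genes (17.8%), of which 1048 (11.8%) were higher and 539 (6.04%) lower in the transduced comparison. Of the 7 genes called in transduced cells, 6 were also called in Tregs and 4 of these had the same direction. The difference between systems was called for Ctsg, Gzmc and Lypd6b. Of the 2747 genes called in Tregs, 1044 had the same sign in transduced cells (38.01%). Of the 1129 called higher in Tregs, 546 were positive in transduced cells (48.36%), against 55.0% of all genes. Of the 1618 called lower in Tregs, 498 were negative in transduced cells (30.78%). Across genes, which are not independent, the 2 differences had a Pearson r of -0.09 and a Spearman rho of -0.202.

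The lists did not run alike in both systems. The proliferation list had a median of 0.60 in transduced cells and 0.96 in Tregs, where 29 members were called higher, against 12.7% of all genes. For 15 members the difference between systems was called, and all of these were smaller in transduced cells, against 6.04% of all genes on that side. Ccna2 differed by 0.72 in transduced cells and by 3.35 in Tregs. The list of genes high in Tregs had medians of -0.17 and 0.55. The difference between systems was called for 16 of its members, all lower in transduced cells, against 6.04% of all genes. Klrg1 had 596 and 872 in M354 Tregs, and 172 and 130 in M176 Tregs. The snoRNA list had medians of 0.03 and -1.20. In Tregs its mean log2 level was 8.66 and 8.78 on the M354 arrays, 9.98 and 10.04 on the M176 arrays, and 8.74 and 8.87 on the WT arrays. Of the 55 genes of the ribosomal protein list, S6 kinase genes included, 36 were called lower and 3 higher in M354 Tregs, against 18.1% and 12.7% of all genes. The part of such differences between whole arrays in the Treg calls was not tested. Foxp3 itself differed by 0.76 in Tregs (adjusted p = 0.000275), with 5991 and 5485 in M354 Tregs, and 3442 and 3321 in M176 Tregs, and the difference between systems was -0.73 (adjusted p = 0.0101).

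**Figure D5:**
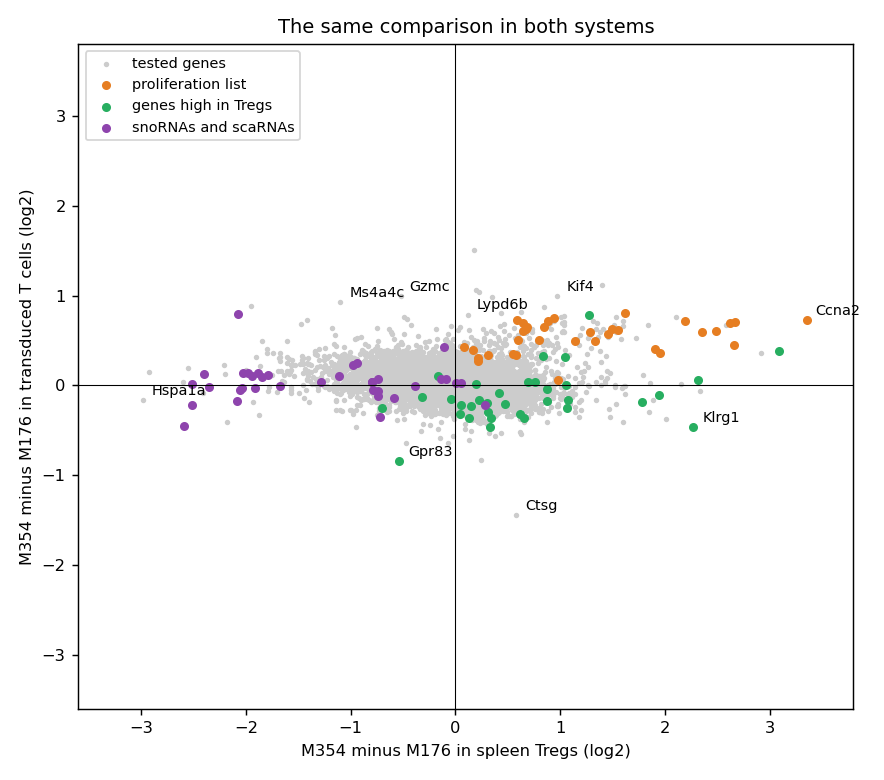
Difference between M354 and M176 for the 8918 tested genes in transduced T cells (log2, vertical axis) and in spleen Tregs (log2, horizontal axis), with 3 gene lists in colour. Differences spread much wider in Tregs; proliferation genes lie above 0 in transduced cells, and snoRNAs stretch to the left, with medians of 0.03 in transduced cells and -1.20 in Tregs.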

How the data were processed

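RNA of the samples was measured on Affymetrix ST 1.0 arrays. RMA values were computed by the authors with Affymetrix Power Tools, per the submitters' processing notes; versions, the genome build and the probe library were not given in the sources used here. The deposited values are intensities on a linear scale for 20716 probe sets, and an array has no read depth. Probe sets were named with the annotation supplied for the table: 17703 had 1 symbol, 1246 several and 1767 none. Where a gene had more than 1 probe set (734 genes), the brightest by its mean over the 12 arrays stood for it. Deposited intensities were converted here to log2.

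Groups were taken from titles. A model with 6 group means over 12 arrays and no block was fitted with limma 3.58.1 in R 4.3.3 (lmFit and eBayes, two-sided, 6 residual degrees of freedom, prior 10.9), with Benjamini-Hochberg adjustment over 8918 genes within a comparison. The fit was tested on simulated data. Alternatives changed the normalization, the filter, the probe set rule, the arrays fitted and the block.

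Named genes follow a rule: Foxp3, called genes and, up to 10 per direction, those of smallest p; called members of each of 35 lists or else up to 3 with the widest difference; and the 5 genes with the largest and 5 with the smallest difference between systems. Predicted genes were left out. Members and lists were chosen with earlier results of these data known, so lists are described by counts and medians only. Sequences are RefSeq's (GRCm38.p6); a promoter was found for 4 of the 6 called genes with the widest differences.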

Additional observations from a re-analysis of the deposited data

Results flagged for a closer look

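The effect of M354 against M176 differed between transduced cells and Tregs by limma's test of that difference (adjusted p under 0.05 over 8918 genes) for the following named genes. Each value is the difference in transduced cells minus that in Tregs, on the log2 scale. The largest were 3.07 for the microRNA gene Mir15b, 2.87 for Snord61, 2.84 for Zfp931, 2.82 for the heat shock gene Hspa1a and 2.75 for the ribosomal protein gene Rps21. The smallest were -2.73 for Klrg1, -2.71 for Gzmb, -2.63 for Ccna2, -2.55 for the chemokine receptor Cxcr6 and -2.40 for the ligand-activated factor Ahr. None of these 10 genes was called in transduced cells, and all 10 were called in Tregs. Hspa1a had 120 and 113 in M354-transduced cells, and 124 and 137 in M176-transduced cells, while it had 139 and 129 in M354 Tregs, and 984 and 1135 in M176 Tregs. Ahr had 228 and 292 in M354-transduced cells, and 282 and 256 in M176-transduced cells, while it had 1783 and 1732 in M354 Tregs, and 368 and 328 in M176 Tregs. Of the genes called in transduced cells, Ctsg differed between systems by -2.03, Gzmc by 1.52 and Lypd6b by 0.67. Ctsg had 63.1 and 46.5 in M354 Tregs, and 40.2 and 32.7 in M176 Tregs. Its difference there (0.58, limma adjusted p = 0.0113) had the opposite sign, but these Treg values all lay below the lowest median of the 12 arrays (101.5).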

How the results depend on the processing

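Of the 7 genes called between M354 and M176 cells, 1 remained with quantile normalization (Ctsg), 0 were called with a percentile 75 filter, which tested 4660 genes and, of the 7, Gzmc and Gpr83 (adjusted p = 0.0950 and 0.116) but not Ctsg, Kif4, Zwilch, Shcbp1 or Lypd6b (193 at an unadjusted p under 0.05 by limma), and 2 when the snoRNA level entered as covariate, an alternative chosen after seeing the data. With the 4 compared arrays only 113 were called, 104 higher and 9 lower. The count was 8 with cyclic loess or no filter and 7 with the mean of probe sets or the 6 transduced arrays (5 shared). With all 11397 probe sets on their own, also added later, 1 was called (Ctsg, adjusted p = 0.00777). Same-numbered M354 and M176 arrays deviated oppositely (r = -0.33 across genes). With 2 arrays per group the crossed numbers then have r = 0.33 by construction, so these values cannot tell whether same-numbered arrays share a culture or batch. With the replicate number as a block the count was 7, of which 6 were shared; the replicate block ended the call of Gpr83 (adjusted p = 0.0656). The crossed pairing of the numbers, added later, called 9. Leaving out each array in turn gave 1 to 18 calls, and 1343 to 2879 in Tregs, 733 to 1791 between systems, 42 to 140 for M354 against WT and 23 to 53 for M176 against WT. The percentile 75 filter gave 1572, 973, 76 and 26 for these.

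Calls split as 1129 higher and 1618 lower in Tregs, against 1502 and 1478 with quantile normalization and 1688 and 1607 with no filter. Between systems 1048 and 539 became 865 and 786 with quantile normalization. Foxp3, at 0.03 between the transduced mutants, turned to -0.0106 with quantile normalization, -0.00507 with cyclic loess, -0.0279 without M354 replicate 2 and -0.0226 without M176 replicate 2, within a range of -0.0279 to 0.0966 over arrays left out. No called gene changed sign. Genes that were not called and did were Irf4, at -0.00713 with quantile normalization, and, over arrays left out, Irf4 (-0.0657 to 0.150), Rps21 (-0.152 to 0.547), Ahr (-0.238 to 0.117), Rora (-0.259 to 0.0514), Cd3d (-0.194 to 0.454), Tyrobp (-0.122 to 0.194), Rps15a (-0.0131 to 0.616), H2bc3 (-0.210 to 1.68), Batf (-0.170 to 0.00370), Snora69 (-1.40 to 0.496) and Mir15b (-0.0432 to 0.334). The cause was not tested. A lone array left in a group is assumed to vary like the other groups.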

Other observations

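Genes of immunoglobulin light chains and Jchain, which plasma cells express, were among the 5 genes that differed by more than 1 on the log2 scale in transduced cells, with Ctsg and Gzma. They were chosen after their values were seen. Jchain had 200 and 152 in M354 cells, 61.0 and 114 in M176 cells, and 220 and 151 in WT cells (log2 1.07, limma adjusted p = 0.298), so that M176 was the low group. The other tested plasma cell markers, Mzb1 and Irf4, had differences of 0.23 and 0.04. None of the plasma cell markers was called, against 0.0785% of all genes.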
